A study of Homo sapiens with 4 samples.

Results

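The genes described here are those of the LIF, gp130 and STAT pathway: LIF, LIFR, IL6ST, IL6R, OSMR, JAK1, STAT3, STAT5A, SOCS3 and CISH. These 10 symbols were taken by name from a table of 26364 gene symbols. RNA was sequenced from Ishikawa cells, an established human line of endometrioid adenocarcinoma, a cancer of the lining of the uterus. All cells carried the Y537S mutation in ESR1, the gene for estrogen receptor alpha. The mutation lies in the domain that binds estrogen. Cells of 2 mutant clones were kept in medium stripped of hormones and then given the vehicle, 0.1% DMSO, or 10 nM estradiol (E2), each for 8 h. Each clone gave 1 library per treatment, so the DMSO group and the E2 group held 2 libraries each. No unmutated cells enter any comparison here. The library columns carry the tags A4 and B212, which no label links to clone 1 or clone 2, and libraries are named here by tag and treatment.

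LIF, leukemia inhibitory factor, is a secreted cytokine that the endometrium makes around the time of implantation. It binds LIFR, which then pairs with gp130, the product of IL6ST and the signalling chain that most receptors of the IL-6 family share. JAK1, a kinase bound to these chains, phosphorylates STAT3 and other STAT proteins, which move to the nucleus and switch on genes. SOCS3 and CISH are among those genes, and their products feed back to damp cytokine signalling.

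The libraries held 71575816 to 85222856 counts. All 5 epithelial markers, KRT8, KRT18, KRT19, EPCAM and CDH1, were abundant, with a summed level of 2027 to 2637 CPM, counts scaled to a common library total. The 5 immune markers summed to 1.73 to 2.52 CPM, with CD3E at 0 in every library. The 4 endothelial markers summed to 2.30 to 5.11 CPM, with PECAM1 at 0. The 5 fibroblast markers summed to 93.4 and 129.2 CPM in A4 but 34.9 and 42.8 CPM in B212. Nearly all of that sum was COL1A1, while DCN, LUM and PDGFRB had 0 to 13 counts per library. CPM values carry the TMM correction for library composition. COL1A1, KRT18 and VWF fell with E2 when the tag was a block (edgeR, adjusted p = 0.00394, 0.0230 and 0.0441). PGR, the progesterone receptor gene and a classic E2 target, rose from 51.6 to 72.1 CPM in A4 and from 5.62 to 15.6 CPM in B212, by 0.90 ± 0.14 (log2, SE) with the block (edgeR, adjusted p = 8.55e-04). ESR1 itself stood at 86.5 to 109.9 CPM and fell by 0.25 (log2) with the block (edgeR, adjusted p = 0.0330). Without the block PGR was at 0.62 ± 1.24 (log2, SE), and neither PGR nor ESR1 was called.

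All 10 genes passed the filter on low counts, as did 15599 genes in all. Their levels spanned more than 2 orders of magnitude. Levels can be compared between genes only per length, so CPM was divided by the length in kilobases of the longest transcript of each gene. On that scale IL6ST stood highest, at 25.3 to 29.4 CPM per kilobase over the 4 libraries. STAT3 followed at 17.6 to 22.1, OSMR at 8.24 to 12.1 and CISH at 5.02 to 6.06. JAK1 at 1.51 to 2.62 and LIFR at 1.73 to 1.97 overlapped, so their order is not settled. SOCS3 lay below both at 0.904 to 1.11. IL6R at 0.240 to 0.709 and LIF at 0.213 to 0.575 also overlapped. STAT5A was lowest, at 0.116 to 0.177. The signalling chain gp130 and STAT3 thus had the most abundant transcripts of the set, and STAT5A the least.

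**Figure D1:**
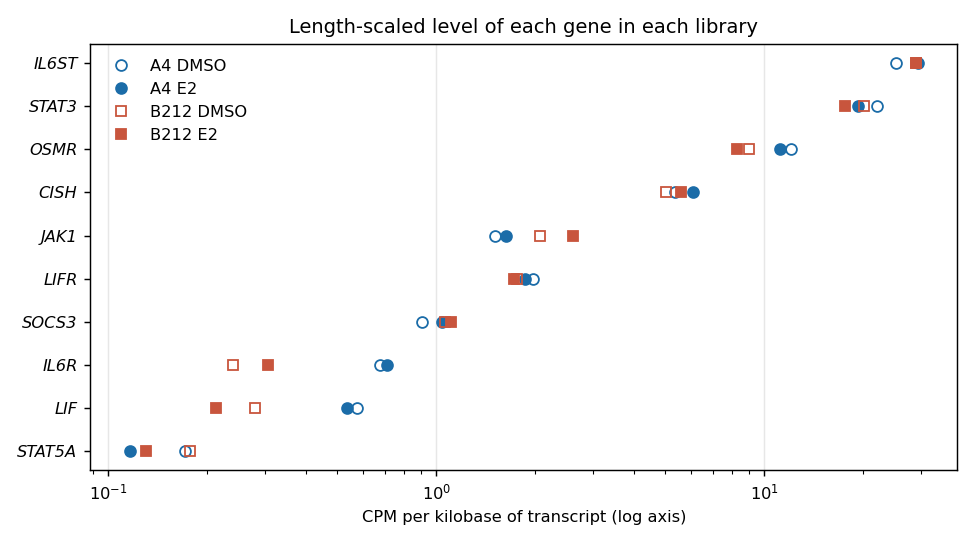
Level of each of the 10 genes in CPM per kilobase of transcript (log axis), 1 symbol per library, open for DMSO and filled for E2. IL6ST lies at 25.3 to 29.4 and STAT5A at 0.116 to 0.177, and only the pairs JAK1 with LIFR and IL6R with LIF overlap between neighbours.

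The first comparison asked whether E2 altered these transcripts where the receptor carries Y537S. None of the 10 passed the test, with or without the tag as a block. The quasi-likelihood test of edgeR, without the block and with a Benjamini-Hochberg threshold of 0.05, called 0 of the 10 and 0% of all genes tested, and 0 of the 10 had an unadjusted p under 0.05 (0.962% of all genes). Adding the tag as a block, edgeR called 0 of the 10 where it called 9.56% of all genes. At an unadjusted p under 0.05 there were 2, JAK1 and STAT3, where 25.3% of all genes had one. DESeq2 and limma-voom also called 0 of the 10, with and without the block. Among all genes tested they called 562 and 1138 with the block, and 1 and 0 without it. Of the 10, DESeq2 returned adjusted values for the blocked design only for IL6ST, OSMR and STAT3. The median log2 fold change with the block was 0.030 over the 10 genes and -0.0081 over all genes tested. The part of the marker genes that moved with E2 in these values was not tested. The E2 and DMSO libraries did not overlap for 4 of the 10, IL6ST, STAT3, STAT5A and CISH, against 25.0% of all genes. IL6ST enters this count by 263.0 CPM in B212 E2 against 262.8 CPM in B212 DMSO, an order that reversed under DESeq2 size factors. In bulk RNA, fewer cells that express a gene and less RNA per cell cannot be told apart.

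Although none was called, the differences had 1 direction in both tags for each of the 10 genes, 5 higher and 5 lower with E2. Over all genes tested, 70.2% had 1 direction in both tags. Under DESeq2 size factors the count was 9, because IL6ST, whose difference in B212 was close to 0, took opposite signs. IL6ST, IL6R, JAK1, SOCS3 and CISH lay higher in the E2 library of both tags, and LIF, LIFR, OSMR, STAT3 and STAT5A lower.

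**Figure D2:**
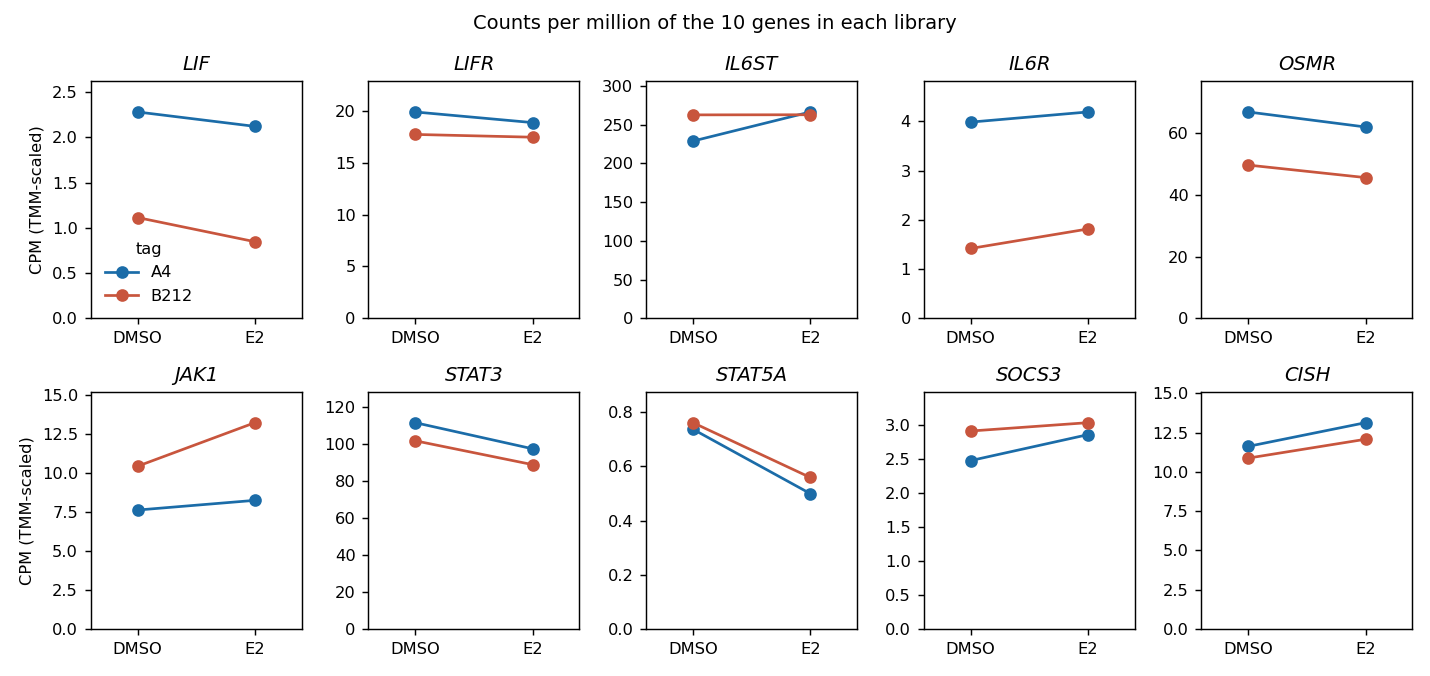
CPM of each of the 10 genes in the DMSO and E2 library of the A4 and B212 tags, with a line joining the libraries of a tag and each axis starting at 0. The lines of a gene slope the same way in both tags, and for LIF, LIFR, IL6R, OSMR, JAK1 and SOCS3 both libraries of one tag lie above both of the other.

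LIF, the ligand, had 167 counts in A4 DMSO, 174 in A4 E2, 95 in B212 DMSO and 62 in B212 E2. These were 2.28, 2.12, 1.11 and 0.846 CPM in the same order. Both A4 libraries lay above both B212 libraries, and within a tag the E2 library was the lower. The log2 fold change with E2 was -0.10 in A4 (95% interval -0.42 to 0.21) and -0.40 in B212 (-0.88 to 0.081). These intervals, here and below, cover counting error only. With the tag as a block it was -0.22 ± 0.20 (SE), with a 95% interval of -0.63 to 0.18 (edgeR, adjusted p = 0.512). The interval thus includes no change as well as a fall or a small rise.

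Among the receptors, IL6ST had 228.9 and 262.8 CPM in DMSO and 266.6 and 263.0 CPM in E2, A4 first. The A4 DMSO library was the low one and the other three lay close together. The E2 log2 fold change was 0.22 in A4 (95% interval 0.19 to 0.25) and 0.00087 in B212 (-0.027 to 0.029). The intervals do not overlap, but with 1 library per tag and treatment the difference between the tags was not tested against replicate spread. Together, with the block, it was 0.11 ± 0.074 (SE) (edgeR, adjusted p = 0.371). Of the 32-base words of the IL6ST transcript, 5.59% also occur in other genes, chiefly the pseudogene IL6STP1, so a small part of its reads could have been lost or shared.

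LIFR, the chain that binds LIF, had 19.9 and 17.7 CPM in DMSO and 18.9 and 17.5 CPM in E2, A4 first. The 4 values lay close together, with A4 slightly above B212. Its log2 fold change with the block was -0.049 ± 0.087 (SE, 95% interval -0.23 to 0.13) (edgeR, adjusted p = 0.772). LIFR-AS1, its antisense neighbour, had 24 to 36 counts per library against 1280 to 1548 for LIFR. OSMR, which pairs with gp130 to bind oncostatin M and lies close to LIFR in the gene order, had 66.9 and 49.7 CPM in DMSO and 62.0 and 45.6 CPM in E2. On the log2 scale E2 against DMSO stood at -0.11 in A4, -0.12 in B212 and -0.12 ± 0.073 (SE) with the block (edgeR, adjusted p = 0.341). IL6R, the chain that binds IL-6, had 3.99 and 1.42 CPM in DMSO and 4.19 and 1.81 CPM in E2. On the log2 scale it stood at 0.073 in A4 and 0.36 in B212, both with intervals that include 0, and at 0.19 ± 0.16 (SE) with the block (edgeR, adjusted p = 0.487).

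JAK1 had 7.62 and 10.4 CPM in DMSO and 8.24 and 13.2 CPM in E2, A4 first. The E2 library was the higher of each tag, by 0.11 (log2, 95% interval -0.051 to 0.28) in A4 and 0.34 (0.21 to 0.48) in B212. With the block the log2 fold change was 0.23 ± 0.11 (SE) (edgeR, adjusted p = 0.172). Across the 8 settings with the block its adjusted p-value was 0.139 to 0.223, and DESeq2 gave none.

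STAT3 came closest to the threshold. It had 111.4 and 101.6 CPM in DMSO and 97.3 and 88.8 CPM in E2, A4 first. Both E2 libraries lay below both DMSO libraries, by the same amount in each tag, -0.20 (log2). The counting interval ran from -0.24 to -0.15 in both tags. With the block the standard error of this difference was 0.069 (edgeR, adjusted p = 0.0774), and without it 0.12. Across the 8 settings with the block the adjusted p-value was 0.0515 to 0.345. The last belongs to the setting in which length and GC effects were taken out of each library, where the difference was -0.094 (log2).

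STAT5A, a STAT that responds to prolactin and other cytokines, had 54 and 65 counts in DMSO and 41 and 41 counts in E2. These were 0.737 and 0.762 CPM in DMSO and 0.4998 and 0.559 CPM in E2. Both E2 libraries lay below both DMSO libraries, and the log2 fold change with the block was -0.50 ± 0.28 (SE), with a 95% interval of -1.08 to 0.083 (edgeR, adjusted p = 0.274). It was the largest difference among the 10 genes and rested on the fewest counts, 201 in all. STAT5A is also uncertain because 15.8% of its 32-base words occur in STAT5B, its paralog and neighbour. STAT5B had 1202 to 1587 counts per library and a log2 fold change of -0.043 with the block.

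**Figure D3:**
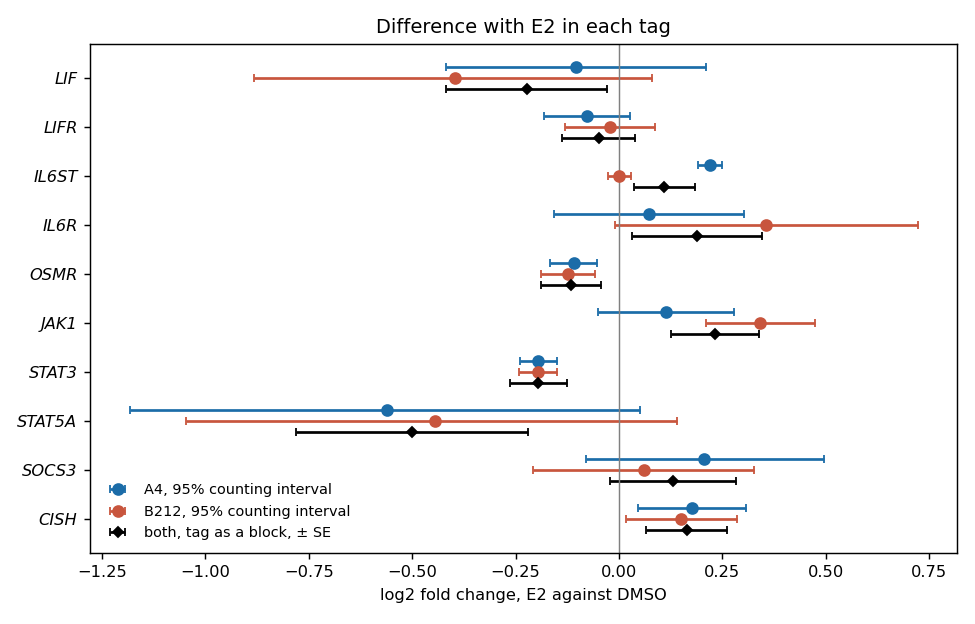
Log2 fold change of E2 against DMSO for each gene in A4 and in B212, with 95% intervals for counting error, and for both tags with the tag as a block, with its standard error. STAT3 sits at -0.20 in both tags, and IL6ST at 0.22 in A4 and 0.00087 in B212.

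The feedback genes are often read as a sign of STAT activity, which was not measured here. The STAT recognition sequence TTCNNNGAA, which reads the same on both strands, was searched in the 250 bases before each start that RefSeq gives (assembly GRCh38.p14). Of the 10 genes, 9 had such a window, 16 windows in all, and 3 windows held the sequence, against 6.57% of 35116 windows of all genes. CISH held it 4 times, at 241, 230, 129 and 112 bases before the start, and 0.0285% of all windows held it at least 3 times. LIFR held it once in each of 2 of its windows. The windows are shown because they are the ones of the set with the sequence, which is in capitals, 5′ to 3′ on the gene's strand. CISH lies at chr3:50611775-50612024 on the minus strand, the first LIFR window at chr5:38557468-38557717 and the second at chr5:38595406-38595655, both on the minus strand.
CISH: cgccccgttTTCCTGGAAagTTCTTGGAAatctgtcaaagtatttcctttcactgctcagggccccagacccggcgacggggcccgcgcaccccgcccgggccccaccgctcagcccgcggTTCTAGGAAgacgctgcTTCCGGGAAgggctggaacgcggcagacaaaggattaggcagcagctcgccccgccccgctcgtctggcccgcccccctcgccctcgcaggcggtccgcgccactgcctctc
LIFR first: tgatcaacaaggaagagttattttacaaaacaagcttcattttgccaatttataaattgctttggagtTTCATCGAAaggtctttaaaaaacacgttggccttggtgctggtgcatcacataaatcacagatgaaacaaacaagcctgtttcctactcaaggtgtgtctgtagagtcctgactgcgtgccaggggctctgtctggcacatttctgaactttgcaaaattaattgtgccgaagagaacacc
LIFR second: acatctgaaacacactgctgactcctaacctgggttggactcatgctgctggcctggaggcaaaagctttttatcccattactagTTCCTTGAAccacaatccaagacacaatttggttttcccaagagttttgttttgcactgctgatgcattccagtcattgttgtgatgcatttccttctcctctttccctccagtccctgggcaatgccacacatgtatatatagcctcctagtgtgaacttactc
The full estrogen response element, GGTCA and TGACC with any 3 bases between, also reads the same on both strands. It was in 0 of the 16 windows and in 0.0399% of all windows. A match describes letters in a window and shows no binding.

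The CISH transcript had 11.6 and 10.9 CPM in DMSO and 13.1 and 12.1 CPM in E2, A4 first. Both E2 libraries lay above both DMSO libraries, by 0.18 (log2, 95% interval 0.045 to 0.31) in A4 and 0.15 (0.017 to 0.29) in B212. With the block the log2 fold change was 0.16 ± 0.097 (SE) (edgeR, adjusted p = 0.308). SOCS3, which binds gp130 and blocks JAK kinases, had 2.47 and 2.91 CPM in DMSO and 2.85 and 3.03 CPM in E2. Its groups overlapped, and its log2 fold change with the block was 0.13 ± 0.15 (SE) (edgeR, adjusted p = 0.637). Neither feedback gene passed the test for E2, and the upper bounds of their 95% intervals were 0.37 (CISH) and 0.45 (SOCS3) on the log2 scale.

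The other genes of the pathway were taken from lists by role, 62 genes in all, of which 52 were tested. With no block edgeR called 0 of them, and 1, BCL2L1, had an unadjusted p under 0.05. DESeq2 and limma-voom without the block also called 0, beside 1 and 0 of all genes. Once the tag was a block edgeR called 4, where 9.56% of all genes were called. Of the 4, 1 was higher, where 6.13% of all genes were, and 3 were lower, where 3.44% were. The median log2 fold change of the 52 tested genes with the block was -0.074, against -0.0081 over all genes tested.

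The gene that rose was PIM1, 1 of 12 genes listed as STAT-responsive, which encodes a survival kinase. It had 23.9 and 11.5 CPM in DMSO and 34.4 and 26.4 CPM in E2, A4 first, and both E2 libraries lay above both DMSO libraries. The rise was 0.53 (log2) in A4, 1.20 in B212 and 0.85 ± 0.11 (SE) with the block (edgeR, adjusted p = 2.25e-04). It was called in all 8 settings with the block. In the fit that has no block, PIM1 moved from 0.78 to 1.404 without the A4 DMSO library and to 0.34 without the B212 DMSO library. BCL2L1, the gene for the anti-apoptotic protein BCL-XL in the same list, fell from 96.2 and 98.9 CPM to 79.4 and 80.9 CPM. The difference was -0.28 ± 0.069 (log2, SE) with the block (edgeR, adjusted p = 0.0152), and it was not called with the length and GC trend removed (adjusted p-value 0.0654). Of the list, 11 genes were tested, and these 2 were called, in opposite directions, where 9.56% of all genes were called. IER3 had 0 counts in every library. BCL3, CEBPD, CEBPB and JUNB had log2 fold changes of 0.34, 0.23, 0.14 and -0.24 with the block and were not called. MYC was at 0.16 in A4 and -0.14 in B212.

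ITGB3, the beta-3 integrin chain used as a marker of the receptive endometrium, fell with E2. It had 54.0 and 27.6 CPM in DMSO and 35.4 and 16.5 CPM in E2, A4 first, so within each tag the E2 library was the lower, while the groups overlapped across tags. The difference was -0.61 (log2) in A4, -0.74 in B212 and -0.67 ± 0.081 (SE) with the block (edgeR, adjusted p = 7.45e-05). It was called in all 8 settings with the block. Of 13 listed receptivity genes 9 were tested. With the block edgeR called 1, ITGB3, where 9.56% of all genes were called. In the fit that has no block, ITGB3 moved from -0.65 to -0.083 without A4 DMSO and to -0.20 without B212 E2, and to -1.31 without A4 E2 and -1.07 without B212 DMSO. HOXA10 and MSX1, homeobox genes of the endometrium, had log2 fold changes of -0.0078 and 0.018. SPP1 stood at 0.58 (log2) in A4, -0.022 in B212 and 0.39 with the block, and was not called (edgeR, adjusted p = 0.165). Of the 9 tested receptivity genes, 3 lay above 0 and 6 below with the block. SHC1, 1 of 4 adaptors and a link from receptors to the RAS pathway, fell by 0.23 (log2) with the block (edgeR, adjusted p = 0.0448). It was called in 4 of the 8 settings with the block. In the fit that has no block it moved from -0.24 to 0.038 without A4 DMSO and to -0.051 without B212 E2, and to -0.45 without A4 E2 and -0.48 without B212 DMSO.

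The other lists held no call with the block. These were 4 tested of 9 further ligands, 3 receptors, 3 JAK kinases, 5 STATs and 13 inhibitors. IL6, OSM, CNTF, IL27 and EBI3 had at most 7 counts in a library, so changes in these ligands were not detectable. IL11 had 15 and 31 counts in DMSO and 27 and 42 in E2, with a log2 fold change of 0.67 ± 0.35 (SE) with the block (edgeR, adjusted p = 0.247). CLCF1, a ligand of the CNTF receptor, had 4.62 and 2.57 CPM in DMSO and 3.60 and 1.71 CPM in E2, and with the block it was not called (edgeR, adjusted p = 0.0580). JAK2 and TYK2 had log2 fold changes of 0.016 and -0.091.

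**Figure D4:**
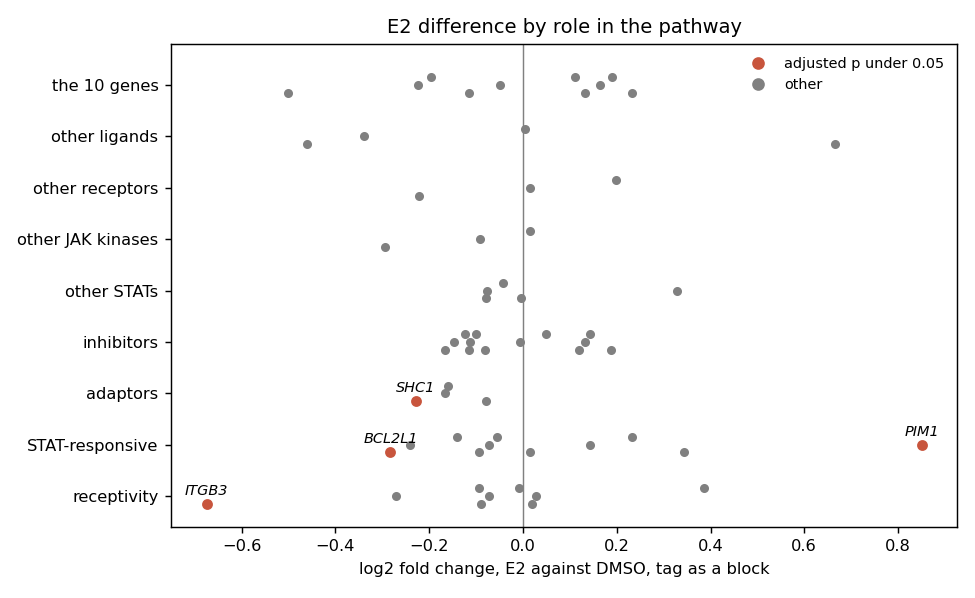
Log2 fold change of E2 against DMSO with the tag as a block, 1 point per tested gene, by role in the pathway, with genes past the threshold in red. PIM1 at 0.85 and ITGB3 at -0.67 lie farthest from 0 among the called genes, and none of the 10 genes in the top row is called.

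The second comparison asked how the 10 genes differed between the cells of the tags, with treatment as a covariate. LIF, IL6R and OSMR were lower in B212 and JAK1 was higher. These were 4 of the 10 genes, where edgeR's quasi-likelihood test called 51.0% of all genes. The 3 lower genes stand beside 25.8% of all genes called lower, and the 1 higher gene beside 25.2% called higher. Taken over both directions, the share of the set was thus no larger than that of all genes. The share called lower, 3 of the 10, was slightly above 25.8%. The B212 and A4 libraries did not overlap for 6 of the 10, the called genes with LIFR and SOCS3, against 67.5% of all genes. The test sets the tag difference against what the tag and treatment terms leave unexplained in 4 libraries from 2 clones. No clone has a repeat library of a treatment, so the test compares these cells only.

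IL6R was lower in B212, at -1.35 ± 0.16 (log2, SE), or 2.54-fold (edgeR, adjusted p = 7.13e-07). Its mean was 4.09 ± 0.15 CPM in A4 and 1.62 ± 0.28 CPM in B212 (SD, n = 2, over the DMSO and E2 libraries). LIF was lower by -1.17 ± 0.20 (SE), or 2.25-fold, from 2.20 ± 0.11 to 0.979 ± 0.19 CPM (edgeR, adjusted p = 5.32e-05). OSMR was lower by -0.44 ± 0.073 (SE), from 64.5 ± 3.45 to 47.6 ± 2.87 CPM (edgeR, adjusted p = 5.39e-05). JAK1 was higher by 0.57 ± 0.11 (SE), from 7.93 ± 0.44 to 11.8 ± 1.97 CPM (edgeR, adjusted p = 1.62e-04). LIF and IL6R remained past the threshold without any 1 library. JAK1 was lost without the B212 E2 library (adjusted p-value 0.156), and OSMR was lost without it (0.184) and without the B212 DMSO library (0.0570). The summed fibroblast markers were also lower in both B212 libraries, and their part in these differences was not tested.

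The other 6 genes differed less between the tags. IL6ST was at 0.090 ± 0.074 (log2, SE), LIFR at -0.14 ± 0.087 and STAT3 at -0.13 ± 0.069. STAT5A was at 0.099 ± 0.28, SOCS3 at 0.16 ± 0.15 and CISH at -0.11 ± 0.097. Their edgeR adjusted p-values were 0.114 to 0.793. LIFR was called, at -0.30, only with the length and GC trend removed (adjusted p-value 0.00718). Of the variance of log2 CPM over the 4 libraries, the tag took 96.5% for IL6R, 94.4% for LIF and 93.4% for OSMR, but 4.05% for STAT5A and 31.6% for STAT3. Treatment took the largest share for 4 of the 10, IL6ST, STAT3, STAT5A and CISH, against 25.0% of all genes tested. With 1 library per tag and treatment, this repeats the count of genes whose E2 and DMSO libraries did not overlap. For IL6ST the treatment share, 37.8%, was close to the 37.2% for a treatment difference that varied with the tag.

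Some ligands and receptors of the other lists also differed between the tags. CLCF1 was lower in B212 by -0.95 (log2), IL27RA by -1.07 and IL11RA by -0.42. IL11RA was called in 4 of 9 settings. IL11, CTF1 and CNTFR were not called, at 0.81, 0.22 and 0.41. Of the other 5 STATs tested, 3 were called, all higher in B212. STAT6, which mediates IL-4 signalling, had 283 and 306 counts in A4 and 1702 and 1489 in B212, a log2 fold change of 2.41 ± 0.11 (SE) or 5.30-fold (edgeR, adjusted p = 1.86e-13). STAT2, a partner in interferon signalling, was higher by 0.77 and STAT5B by 0.30, the latter not called by DESeq2 (adjusted p-value 0.0918) or with no treatment term. STAT5B, STAT5A and STAT3 lie next to one another in the gene order, and their log2 fold changes of 0.30, 0.099 and -0.13 did not share a direction.

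JAK3 was higher in B212 by 0.81. Among the inhibitors SOCS1 and SOCS2, which restrain JAK and growth hormone signalling, were lower by -0.82 and -0.74, PTPN6 was higher by 0.31 and PTPN2 lower by -0.25. PIAS2 was higher by 0.18, and PTPN1 and SOCS7 lower by -0.17 and -0.19, and these 3 calls were lost with no treatment term and by DESeq2. PTPN1 and SOCS7 were also lost with library size only, as were PTPN2 and IL11RA. PIAS2 was called in only 4 of 9 settings and stood at 0.062 once length and GC effects were taken out. The adaptor GAB1 was higher by 0.76, and SHC1 lower by -0.45. Of the STAT-responsive genes BCL6 and IRF1 were higher, by 1.04 and 0.39. CEBPD, PIM1, JUNB, TIMP1 and CEBPB were lower, by -0.89, -0.70, -0.35, -0.35 and -0.30. Of the receptivity genes SPP1 (osteopontin) was lower by -2.43, ITGB3 by -1.04, HOXA11 by -0.65 and HBEGF by -0.58. LPAR3, MUC1 and MSX1 were higher by 0.87, 0.62 and 0.51. In all, edgeR called 31 of the 52 tested genes of these lists, 12 higher and 19 lower in B212, beside 51.0% of all genes. With library size only in place of TMM the split was 15 higher and 15 lower. With no treatment term 19 were called, and PIM1, JUNB, CEBPB, IRF1, HBEGF, PTPN2 and PTPN6 were among those lost. SOCS1, IRF1, HBEGF and PTPN6 were not called by DESeq2.

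**Figure D5:**
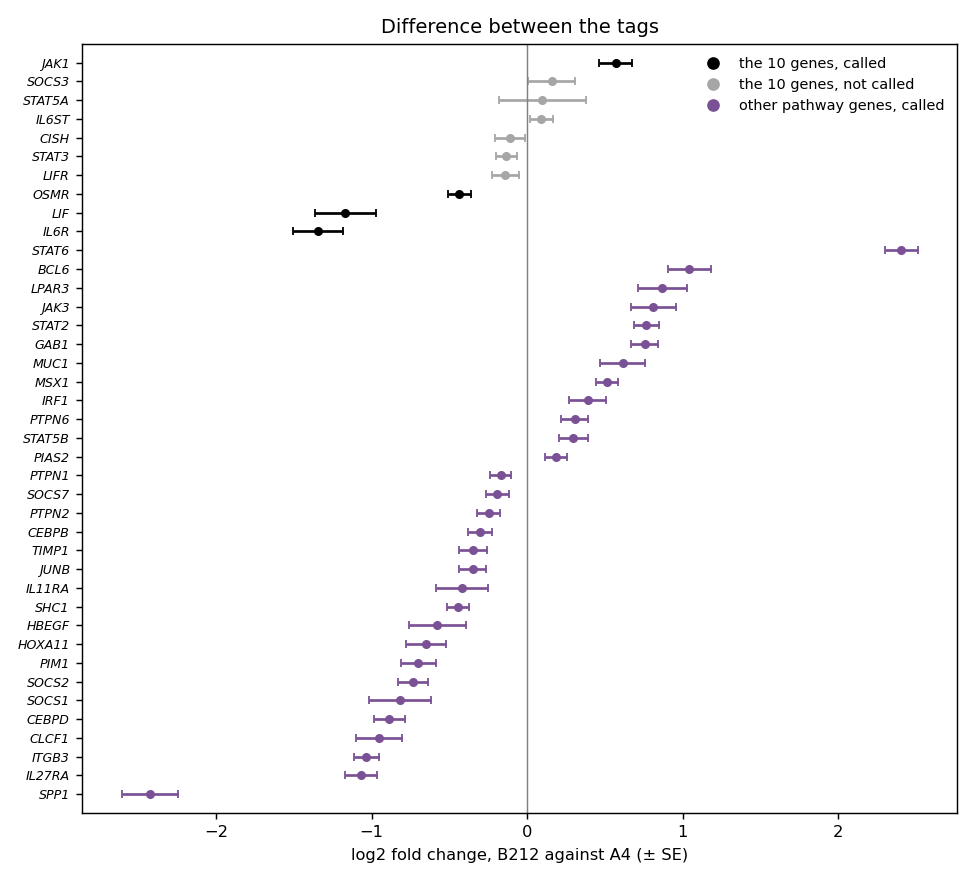
Log2 fold change of B212 against A4 with its standard error for the 10 genes and for the other pathway genes past the threshold that the text names. IL6R at -1.35, LIF at -1.17 and OSMR at -0.44 lie to the left, JAK1 at 0.57 to the right, and STAT6 at 2.41 and SPP1 at -2.43 are farthest from 0 among the genes shown.

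The genes whose profile over the 4 libraries was nearest to that of LIF were MEF2C, PCDH7 and STEAP1B, among 12488 genes with a mean of at least 100 counts. Their Euclidean distances from LIF in centred log2 CPM were 0.077, 0.097 and 0.13. MEF2C, a transcription factor of muscle and other tissues, had 679 and 702 counts in A4 and 380 and 268 in B212, DMSO first. With 4 libraries such nearness is a description only.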

How the data were processed

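Poly(A)-selected, stranded libraries were made from RNA of 4 cultures, per the labels' protocols. The authors deposited whole-number read counts, not normalized, with 1 row per symbol. The submitters' processing notes name HISAT2, SAMtools, featureCounts, DESeq2 and the build hg19, without versions or roles; annotation and strand setting are not given in the sources used here. The table has 4 more columns of sample values that match none of these labels; they were not used.

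Columns were placed by the treatment in their names. Genes were kept by filterByExpr of edgeR 4.0.16 (minimum count 10), library sizes scaled by TMM, and E2 compared with DMSO by the quasi-likelihood test with no block, with Benjamini-Hochberg adjustment over all 15599 genes and a threshold of 0.05. For B212 against A4, treatment entered as a covariate. Each standard error is the log2 difference divided by the root of F, and variance shares from log2 CPM with a prior count of 2. The labels give each clone 1 library per treatment, and the column tags pair them; same-tag libraries deviated together from their group means (Pearson r = 0.871 across genes, 1 independent value). Values with the tag as a block are therefore printed too. Exact (Clopper-Pearson) 95% intervals within a tag cover counting error only. Nothing states separate cultures within a clone, and no clone has a repeat library of a treatment, so p-values speak for these libraries only. With no block, they weigh the E2 difference against the spread of libraries within a treatment, tags included. With tag and treatment both in the fit, they weigh a difference against what these terms leave unexplained.

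Lengths and GC content came from GENCODE 29 (longest transcript, coding preferred) and were found for 93.5% of the tested genes; promoter windows came from RefSeq, whose build differs from that of the counts. DESeq2 1.42.0, limma 3.58.1 and mgcv 1.9.3 in R 4.3.3 served for alternatives, and Python 3.11.15 with matplotlib 3.10.9 for figures. Counts were simulated for 15483 genes with tag differences as measured, 200 of them changed by 1 (log2). The E2 fit recovered 0 with no block and 198 with the block, with 0 and 7 false calls. The differences of the 10 genes with the block, -0.50 to 0.23 (log2), were smaller, and recovery at such sizes was not simulated.

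The genes named are the 10 of the set, the cell type markers and the 3 nearest to LIF. Genes of fixed role lists past the threshold are also named, with a few others of those lists for context. PGR, ESR1, LIFR-AS1 and IL6STP1 are in none of the lists and were added for context. The set and the lists were chosen with earlier results of these data known. Some genes of the lists count in the totals but are not reported here by name.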

Additional observations from a re-analysis of the deposited data

How the results depend on the processing

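None of the 10 genes was called for E2 in any alternative run. Among all genes, 0 were called with no block (150 at an unadjusted p under 0.05), and 1 with DESeq2 and no block. With the tag as a replicate block there were 1492 calls, 717 with DESeq2 size factors, 1686 with library size only, 1770 with no filter, 1560 with at least 10 counts in every library, 562 with DESeq2, 1138 with limma-voom and 204 once length and GC effects were taken out. In the same order, the other pathway genes called with the replicate block numbered 4, 3, 5, 5, 4, 3, 3 and 2. In the simulation above, for changes of 1 (log2), edgeR made calls only with the block; the cause of the other changes was not tested. Library size only changed the split with the block from 956 higher and 536 lower to 911 and 775. For the tag comparison it changed 3927 and 4023 to 4761 and 3176.

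Leaving out libraries with no block called 0 genes, and it moved the E2 log2 fold changes across 0 for LIF (-1.004 to 0.42), LIFR (-0.15 to 0.040), OSMR (-0.36 to 0.12), IL6R (-0.58 to 1.09), JAK1 (-0.13 to 0.55) and SHC1 (-0.48 to 0.038). These fits leave the tags unbalanced and assume that a lone library varies like the other group. With no treatment term the tag comparison called 4456 genes and 19 other pathway genes. Leaving out libraries gave 3203 to 5754 genes, 2 to 4 of the 10 genes and 17 to 24 other pathway genes. It moved the tag difference across 0 for IL6ST (-0.029 to 0.20) and STAT5A (-0.16 to 0.40). With the trend removed, an alternative added after the data were seen, IL6ST was at -0.059; the cause was not tested. LIF and STAT5A, with 498 and 201 counts in all, are limited most by depth.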
